A study of Homo sapiens with 8 samples.

Results

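The genes described here encode mitochondrial ribosomal proteins, taken as the protein-coding genes with the symbol MRPL or MRPS followed by a number and, in some, a letter A to C. There were 77 of them among 19942 protein-coding genes, 49 named for the large subunit (MRPL) and 28 for the small subunit (MRPS). They were picked out by name alone, and no measured value entered that rule, though earlier results of these data were known when it was set. The assay was iCLIP2 with an antibody against YTHDF2: ultraviolet light bonds the protein to the RNA it touches, and cDNAs of the purified RNA end next to the bond, so that a contact can be placed to the nucleotide. Cells were wild-type HEK293T, an established human embryonic kidney line, given either 20 µM STM2457 in 0.2% DMSO (4 libraries) or 0.2% DMSO alone (4 libraries) for 12 h. STM2457 inhibits METTL3, the enzyme that makes N6-methyladenosine (m6A) in mRNA, so the design asked which YTHDF2 binding needs m6A. The deposited list holds 37613 distinct single-nucleotide positions on 43178 rows, each with 1 score and with no value or label for any library. STM2457 and DMSO could therefore not be compared, the depth behind a site is unknown, and there is no replicate error. The values below describe the members beside all protein-coding genes, with no test, since genes are not replicates.

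Mitochondria keep a ribosome of their own, which translates the few membrane proteins of the respiratory chain that mitochondrial DNA still encodes. Its RNAs come from mitochondrial DNA, whereas its proteins are encoded in the nucleus, translated in the cytosol and imported. The mRNAs of these proteins are thus cytosolic and within reach of YTHDF2, a cytoplasmic reader of m6A that recruits mRNA decay factors. Some of the proteins descend from bacterial ribosomal proteins and others were added in mitochondria. Classes here follow the names. MRPS30 and MRPS18A, though named for the small subunit, are known from structures to sit in the large one.

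For 5 of the members' sites a RefSeq table of sequences around gene starts (GRCh38.p14) held the surrounding bases, and these are shown because they place each site on the letter that carries m6A in known sites. Each run covers 14 bases on either side of the site, read 5′ to 3′ on the strand of the RNA, with the site and the base on either side of it in capitals. The last pair lies in MRPS34, 6 nt apart, so those runs overlap.
MRPL19, chr2:75646778-75646806, plus strand: gagctgtagtcttGACgtgagctagctgg
MRPS21, chr1:150294015-150294043, plus strand: caaccccttttggAACtatgtgtggtggt
MRPS7, chr17:75262487-75262515, plus strand: cccctcccaggctAACtcaggtgagatgg
MRPS34, chr16:1772631-1772659, minus strand: tctggctttgcagAACttggaccacggga
MRPS34, chr16:1772625-1772653, minus strand: tttgcagaacttgGACcacgggaaggcct

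In all 5 the site was an A with a purine before it and a C after it, and m6A in mammalian mRNA is known to be made at an A in that setting. The same held for the list at large where sequence was at hand. Of 250 positions outside chromosome 8 with sequence in the table (0.665% of the list, all near gene starts), 153 lay on the A of GAC and 97 on the A of AAC, which makes 100% of them. Such an A made up 2.28% of the bases of the table's windows, counting both strands. The base before the purine was never C (0 of 250), and the base after the C was T in 48% and G in 15.2%. No source used here says whether the authors chose or moved positions by sequence, so these letters are a property of the list and show no preference of the protein. Of the 5 members' runs, 2 held GGAC, both in MRPS34. It is the same GGAC in both, since the runs overlap, and its A is the site at 1772639. GGAC stood in 42.4% of the 250 runs and in 9.78% of the table's 35116 windows over a central stretch of 29 bases, each read on its own strand. These 2 shares are not a like comparison. Each of the 250 runs was centred on the A of GAC or AAC, and no such A was required of the windows.

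YTHDF2 sites were found in 60 of the 77 mitochondrial ribosomal protein genes (77.9%), beside 39.0% of all protein-coding genes. The share was 38 of 49 among large-subunit genes (77.6%) and 22 of 28 among small-subunit genes (78.6%). Proteins classed by name as having a bacterial counterpart, with MRPL55 counted among them, had a site in 38 of 47 genes. Those classed as without one had a site in 22 of 30. Whether MRPL55 belongs in the former class was not checked. For 7 of the members with a site the strand was itself taken from the sites, and without genes of that kind, or of no known strand, 53 of 69 members had a site (76.8%), beside 41.5% of 15767 genes. The set of all genes includes genes that these cells may not express. Expression was not used here, and its part in these shares was not tested. Members are short, with a median genomic span of 8.62 kb beside 24.0 kb for all genes. Among genes under 10 kb, 36 of 41 members had a site (87.8%) beside 26.8% of all such genes. Between 10 and 40 kb it was 18 of 24 (75%) beside 41.9%, and at 40 kb or more 6 of 12 beside 45.6%. The share with a site was highest among the shortest members and lowest among the longest, the other way round from all genes.

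**Figure D1:**
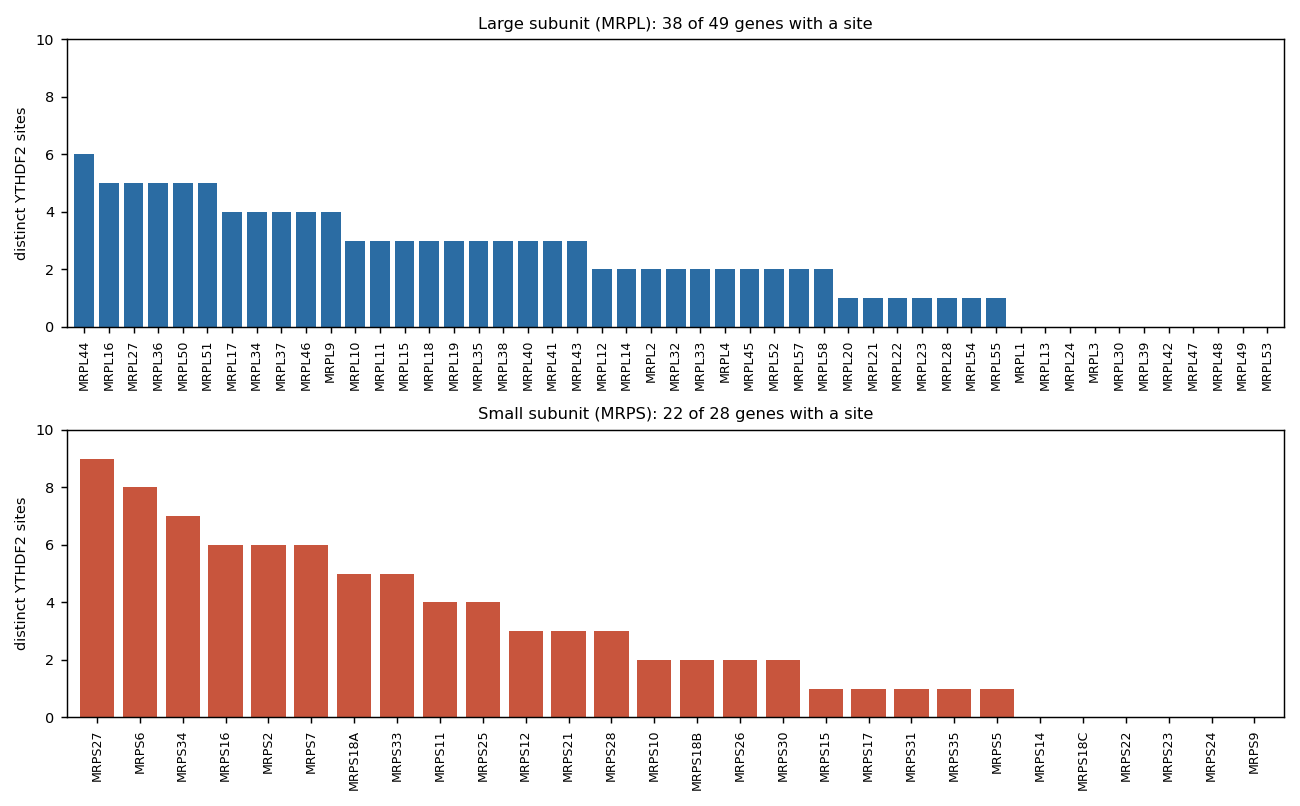
Distinct YTHDF2 sites in each of the 77 mitochondrial ribosomal protein genes (bars, one per gene, axis from 0), with large-subunit genes above and small-subunit genes below. MRPS27 stands highest with 9 sites, and 11 large-subunit and 6 small-subunit genes have none.

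The 190 sites were spread thinly over many members. The median was 3 sites per gene with a site (quartiles 2 and 4), beside 3 over all genes with a site (quartiles 2 and 6). A single site was found in 12 members, 2 sites in 14, 3 in 13, 4 in 7 and 5 in 7. Only 7 members had 6 or more, and 5 or more were found in 14 of 77 (18.2%), beside 15.0% of all protein-coding genes. Among genes with a site the order was reversed, with 14 of 60 members beside 3000 of 7771 genes. Measured per kb of genomic span, members with a site had a median of 0.305 sites, beside 0.109 over all genes with a site. Genomic span includes introns, and the shorter span of the members goes with that difference. Across the 60 members with a site, the number of sites had a Spearman rho of -0.068 with span, beside 0.084 over all genes with a site. All values come from 1 list.

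Small-subunit genes held the top 3 places by number of sites, though MRPS6, next to the top, has only 2 sites outside another gene on its strand, and without it the place after MRPS27 and MRPS34 is shared at 6 sites by MRPL44, MRPS16, MRPS2 and MRPS7. MRPS27, which encodes a pentatricopeptide-repeat protein of the small subunit, had 9 sites, all within 1057 nt on chromosome 5, from 72220009 to 72221065 (GRCh38, minus strand). Its span is 100.8 kb, yet each of the 9 lay within 1662 nt of the gene's 3′ end. The highest of its scores was 121 at 72220726, and the other 8 scored 25.7 or less. A run of 3 sites there, at 72220726, 72220702 and 72220670, was spaced by 24 and 32 nt.

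MRPS6, the counterpart of a bacterial small-subunit protein, had 8 sites by the rule, but most of them can be counted to another gene as well. At 6 sites between 34095061 and 34097565 on chromosome 21 the span of SLC5A3, a myo-inositol transporter gene on the same strand, overlaps that of MRPS6. These 6 lay 45.5 to 48.0 kb from the 3′ end of MRPS6. The remaining 2, at 34142525 and 34142657, lay 505 and 373 nt from that end, in MRPS6 alone, with scores of 124 and 12.4. Apart from these 6, no member's site lay in another protein-coding gene of the same strand.

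MRPS34, a protein with no bacterial counterpart that the small subunit needs for its stability, had 7 sites in a span of only 1.24 kb, or 5.65 per kb, the densest of the members. They ran from 1772156 to 1772645 on chromosome 16 (minus strand), and the highest score was 225 at 1772174. The neighbour to the 5′ side, at 1772211, scored 70.4, and the other 5 scored between 7.39 and 15.9. The 2 whose sequence is shown above scored 15.9 and 12.8.

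MRPS2, MRPS7 and MRPS16, all counterparts of bacterial proteins, had 6 sites each but differed in score and place. In MRPS2, on chromosome 9 between 135503631 and 135504384, 5 of 6 sites scored 55.5 or more, the highest 132, and 5 of 6 were less than 1 kb from the 3′ end. MRPS7 on chromosome 17 had 4 of 6 in the last 1 kb, yet no score above 15.7. MRPS16 on chromosome 10 had only 1 of 6 in the last 1 kb, and its highest score, 117, lay 2090 nt from the 3′ end at 73250939. MRPS18A and MRPS33 had 5 sites each. The 5 of MRPS18A, all in the last 1 kb, also lie within the span of RSPH9 on the other strand. Of the 3 paralogs that share the MRPS18 name, MRPS18A had 5 sites, MRPS18B 2 and MRPS18C none.

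Among large-subunit genes MRPL44, which encodes a protein with a domain like that of ribonuclease III, had the most sites, 6, on chromosome 2 between 223959622 and 223963777. None of the 6 lay in the last 1 kb. A group of 5 spanned 223959622 to 223959934, 7.78 to 8.09 kb from the 3′ end, and its highest score was 49.6. Genes with 5 sites were MRPL16, MRPL27, MRPL36, MRPL50 and MRPL51. MRPL16 and MRPL27 are counterparts of bacterial proteins that lie at the peptidyl transferase centre, where peptide bonds are made.

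MRPL27 on chromosome 17 had all 5 sites within 194 nt, from 50367961 to 50368154 (minus strand), between 94 and 287 nt from the 3′ end. Its scores were 178, 179, 37.3, 128 and 90.1 in order of rising coordinate, so 4 of 5 ranked at percentile 96.2 or above. MRPL16 on chromosome 11 also had its 5 sites near the end, at 262 to 622 nt, but with scores from 1.07 to 55.7. MRPL36, whose bacterial counterpart is a small zinc-binding protein, had 5 between 71 and 343 nt from the end on chromosome 5 and a highest score of 153 at 1798728. After MRPS34 the densest members were MRPL41 and MRPL51, without a bacterial counterpart and with spans of 0.677 and 1.38 kb, at 4.43 and 3.63 sites per kb. MRPL36 followed at 1.64 and MRPS16 at 1.58.

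The remaining members with sites are accounted for here by number. With 4 sites stood MRPL9, MRPL17, MRPL34, MRPL37, MRPL46, MRPS11 and MRPS25. MRPL10 and MRPL11, which belong to the stalk and its base where translation factors bind, had 3 each, as did MRPL15, MRPL18, MRPL19, MRPL35, MRPL38, MRPL40, MRPL41, MRPL43, MRPS12, MRPS21 and MRPS28. With 2 stood MRPL12, the repeated stalk protein, and MRPL58, a peptidyl-tRNA hydrolase that became part of the ribosome. MRPL2, MRPL4, MRPL14, MRPL32, MRPL33, MRPL45, MRPL52, MRPL57, MRPS10, MRPS18B, MRPS26 and MRPS30 had 2 as well. Single sites were found in MRPL20, MRPL21, MRPL22, MRPL23, MRPL28, MRPL54, MRPL55, MRPS5, MRPS15, MRPS17, MRPS31 and MRPS35.

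No site was listed for 17 members. They were MRPL1, MRPL3, MRPL13, MRPL24, MRPL30, MRPL39, MRPL42, MRPL47, MRPL48, MRPL49 and MRPL53 in the large subunit and MRPS9, MRPS14, MRPS18C, MRPS22, MRPS23 and MRPS24 in the small one. Their spans ran from 0.699 to 89.96 kb with a median of 16.4 kb, beside 8.19 kb for the 60 members with a site (0.677 to 112 kb), so the ranges overlap almost entirely. Many members have copies in the genome that no longer make protein, and reads shared with such copies can be lost or split. No source used here says how the authors assigned such reads. RefSeq names 106 MRPL or MRPS pseudogenes, 6 of them of MRPS36, which is no member here. At least 1 was named after 10 of the 17 members without a site and 31 of the 60 with one. MRPL42 and MRPS18C, with 6 pseudogenes each, had no site, whereas MRPS21 with 9, MRPL57 with 8 and MRPS17 with 6 had 3, 2 and 1. No position of the list lay in any of the 106 pseudogenes. Spans of protein-coding genes, read on their strand, took in 37352 of the list's 37613 entries (99.3%), which left few to fall outside them. The count of 0 therefore says little about reads shared with these copies, and such sharing was not tested.

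Sites of the members lay close to the 3′ ends of their genes. Taking genes that span 2 kb or more, 92 of 175 member sites (52.6%) lay in the last 1 kb, beside 16.2% of 37322 sites over all such genes. An even spread over each span would place 14.5% of the members' sites there, and 5.57% of those of all genes. In the first 1 kb lay 18 of the 175 (10.3%), beside 4.88% over all genes. Both are below an even spread, which would place the same 14.5% and 5.57% there. The median distance from the 3′ end was 865 nt with quartiles of 290 and 3436 nt, beside 4157 nt with quartiles of 1627 and 16360 nt over all genes. Exon boundaries were not used here, so coding sequence and 3′ untranslated region are not told apart.

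**Figure D2:**
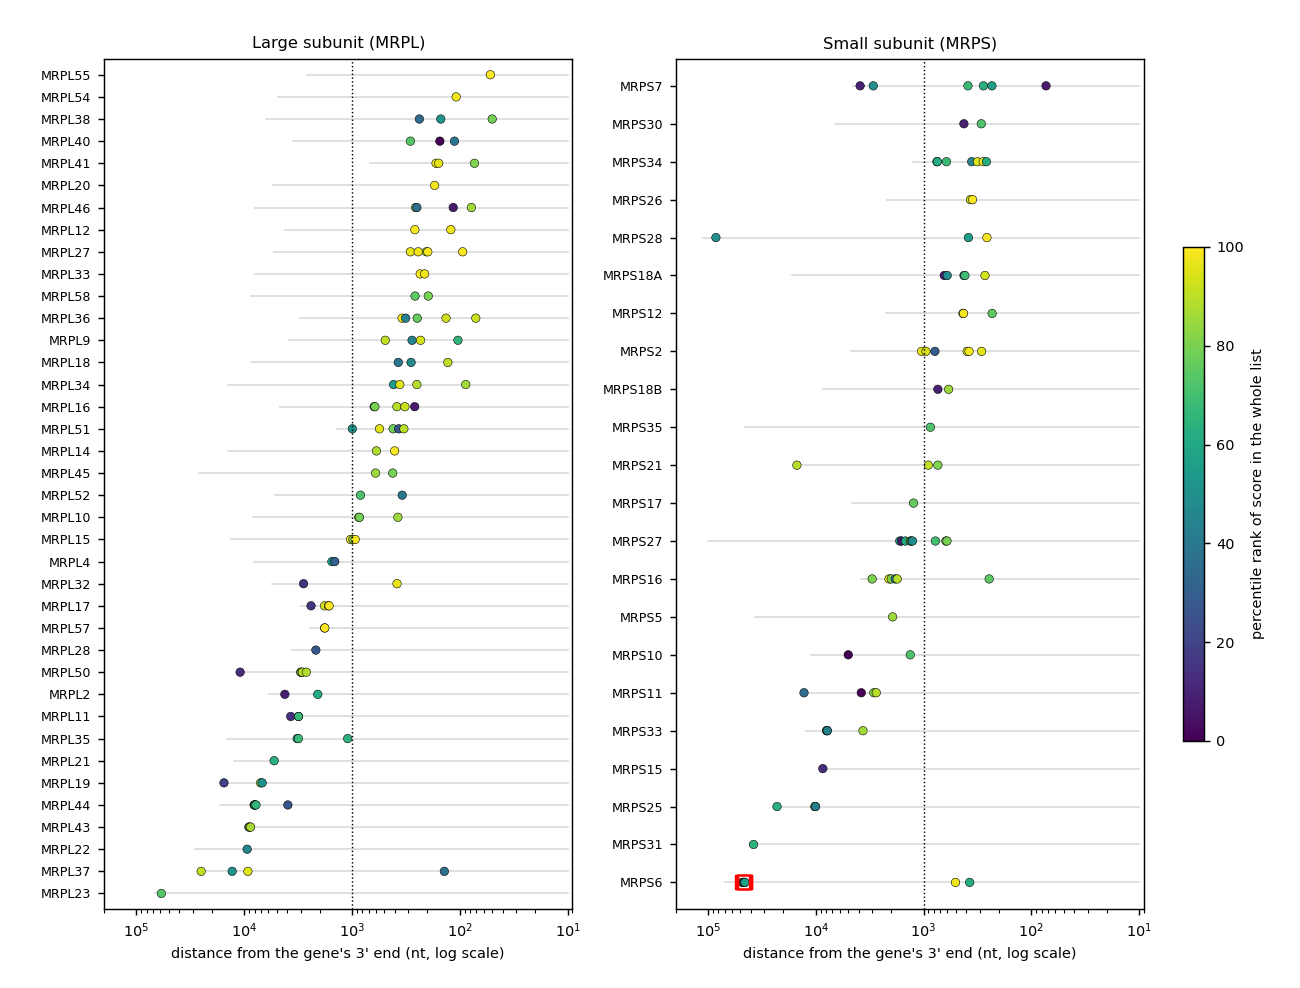
Each site of the 60 members with a site (points), by its distance from the 3′ end of the gene in nt on a log axis that runs towards the end at the right, with each gene's span as a grey line and the dotted line at 1 kb. Colour gives the percentile rank of the score in the whole list, and red squares mark the 6 MRPS6 sites that also lie in SLC5A3. Many large-subunit genes have every site to the right of the dotted line, whereas MRPL44 and MRPS25 have none there.

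The counts per gene showed the same lean, with no allowance for the members' shorter spans (median 8.62 kb beside 24.0 kb). Of 57 members with a site and a span of 2 kb or more, 35 had at least 1 site in the last 1 kb (61.4%), beside 36.9% of all such genes. Every site lay there in 25 of the 57 (43.9%), beside 13.2%. These 25 included MRPL9, MRPL16, MRPL27, MRPL34, MRPL36 and MRPL46 with 4 or 5 sites each, and MRPS18A with 5. In 13 of the 57 no site lay in the first or the last 1 kb, among them MRPL44 and MRPS33. MRPL46 and MRPS11 are neighbours on chromosome 15 that run in opposite directions. All 4 sites of MRPL46 lay within 257 nt of its 3′ end, whereas those of MRPS11 lay 2745 nt or more from its own.

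Counted by distance, 25 of the 175 sites lay 200 to 300 nt from the end, 16 at 300 to 400 nt, 13 at 100 to 200 nt and 7 in the last 100 nt. Within 500 nt lay 40% of member sites, beside 8.06% over all genes, again with no allowance for the members' shorter spans. The share in the last 1 kb was 58.0% of 100 sites in large-subunit genes and 45.3% of 75 in small-subunit genes. It was 57.9% of 114 in genes classed by name as having a bacterial counterpart, MRPL55 among them, and 42.6% of 61 in the others. An even spread would place 16.1% and 12.2% of large- and small-subunit sites there. For genes classed with and without a counterpart an even spread would place 16.3% and 11.1%. These differences among members were not tested. MRPL23 is a member whose distance says little, because its RefSeq span of 67.6 kb runs on over the noncoding gene H19. Its only site, at 1956264 on chromosome 11, lay 8.93 kb from the start and 58.7 kb from that end.

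**Figure D3:**
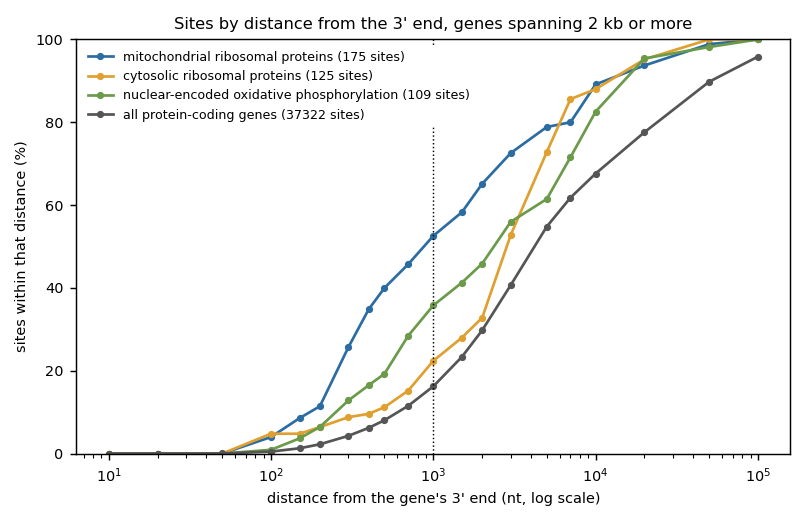
Share of sites (%) that lie within a given distance of the gene's 3′ end (nt, log axis) for genes spanning 2 kb or more, in 4 sets of genes. At 1 kb (dotted line) the curve of the mitochondrial ribosomal proteins stands at 52.6%, that of nuclear-encoded oxidative phosphorylation genes at 35.8%, that of cytosolic ribosomal proteins at 22.4% and that of all genes at 16.2%. An even spread over each span, not drawn, would place 14.5%, 13.9%, 18.4% and 5.57% there, in the same order.

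The scores of member sites were high within the list. The score is the authors' own, on a scale that no source used here states, so its values, cut-offs and ratios are read only within this list. Member sites had a median score of 23.02 (quartiles 8.86 and 54.0), beside 8.67 (quartiles 3.75 and 20.8) over the whole list, which puts the median member site at percentile 77.3. The highest 10% of the list held 53 of the 190 (27.9%), and 45 scored below the list's median. A score of 100 or more was found at 29 member sites in 22 genes (15.3%), beside 3.24% of all positions. The highest score per gene had a median of 49.3 over the 60 members, beside 21.8 over all genes with a site. In 3 members, MRPL22, MRPL28 and MRPS15, the only site scored below the list's median, at 7.41, 4.09 and 1.86. The part of mRNA abundance in the scores was not tested.

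**Figure D4:**
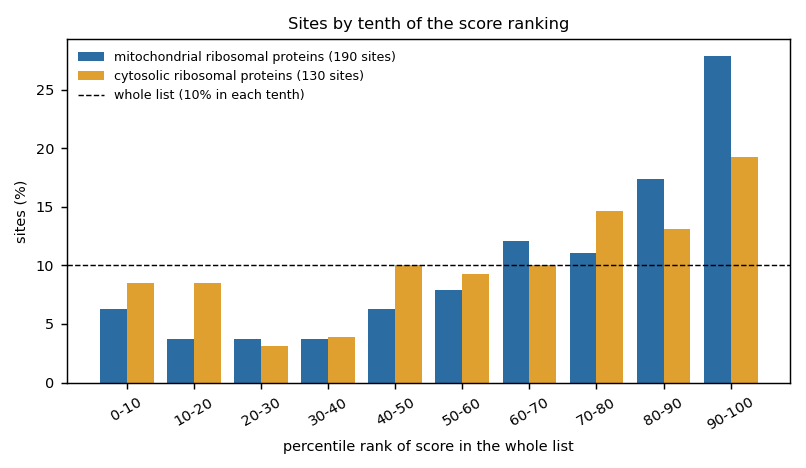
Share of sites (%) in each 10% step of the score ranking of the whole list, for the mitochondrial ribosomal proteins (blue) and the cytosolic ribosomal proteins (orange), with the dashed line at the 10% that the whole list has in each step. The highest step holds 27.9% of the mitochondrial and 19.2% of the cytosolic sites.

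Among single sites of the members, that of MRPL14 scored highest. MRPL14, the counterpart of a bacterial protein at the face between the subunits, had 346 at 44113853 on chromosome 6, 402 nt from its 3′ end. Its other site scored 39.9. MRPL57 followed with a pair 8 nt apart at 21177289 and 21177297 on chromosome 13, scoring 320 and 314, both about 1.8 kb from the end. MRPL57 has 8 named pseudogenes. None of them held a position, which says little in a list that falls almost wholly within protein-coding genes. Whether reads shared with these pseudogenes moved the scores of MRPL57 was not tested. MRPL17 on chromosome 11 had 277 and 268 at 6682015 and 6682039, 24 nt apart, with 65.04 and 2.23 at its other sites. MRPS28 on chromosome 8 had 266 at 79918975, 258 nt from the end of a span of 112 kb, and MRPL55 had its only site, with 202, at 228106737 on chromosome 1, 52 nt from the end. With MRPS34, described above, these are the top 6 genes by score.

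Close pairs such as those of MRPL57 and MRPL17 were found in other members and across the list. Neighbouring sites of 1 member lay a median of 127 nt apart over 130 gaps, the smallest 6 nt. A gap of 50 nt or less was found 38 times, in 25 members. Of the 190 sites, 68 had a neighbour within 50 nt (35.8%), beside 29.7% of the whole list. No allowance was made for the members' greater number of sites per kb.

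Some positions stand on 2 rows and have a score on each. In row order the list splits into a shorter part of 8935 rows and a longer one of 34243, which no label assigns to a treatment, and a position on 2 rows is in both parts. This was so for 38 member sites in 32 genes (20.0%), beside 14.8% of the list. Another 10 member sites were in the shorter part only (5.26%), beside 8.96% of the list, and 142 in the longer part only. At 31 of the 38 the score in the longer part was the higher one (81.6%), beside 70.0% of such positions in the whole list, and the median ratio of longer to shorter was 3.46. The ratio was 10 or more at 12 of them. In MRPL12 the site at 81707256 on chromosome 17 scored 188 in the longer part and 9.85 in the shorter one. The site of MRPL55 scored 202 and 78.7, and that of MRPS28 scored 266 and 91.6. MRPL16, MRPL18, MRPL21, MRPL36, MRPS16, MRPS33 and MRPS34 each had 1 site that went the other way, as in MRPL36 with 15.3 in the longer part and 60.3 in the shorter one. Across the 38 positions the paired scores had a Spearman rho of 0.32, as a description. What either part stands for is unknown, so these ratios are not an effect of STM2457.

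**Figure D5:**
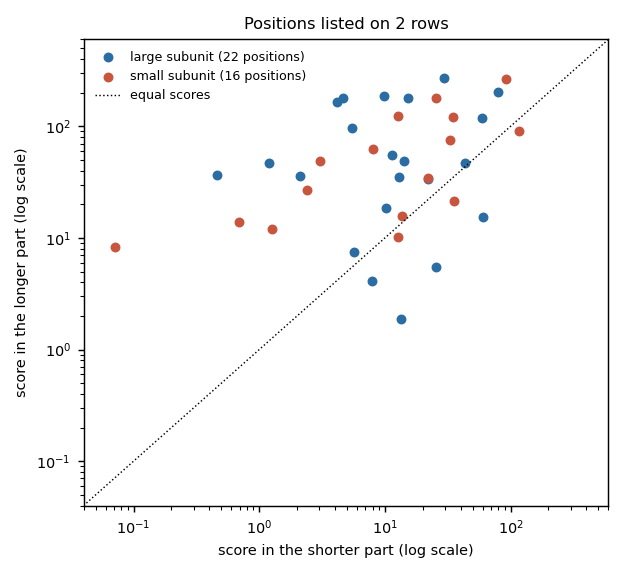
The score of each of the 38 member positions given on 2 rows, in the longer part of the list (vertical, log axis) against the shorter part (horizontal, log axis), coloured by subunit. Above the dotted line of equal scores lie 31 of the points.

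Other genes of mitochondrial translation had sites too. Proteins of the mitochondrial ribosome without the MRP name all had sites, namely GADD45GIP1 with 10, DAP3 with 4, AURKAIP1 and PTCD3 with 3 each, and CHCHD1 with 2. All 4 sites of DAP3, in a span of 51.1 kb, lay in the last 1 kb. Assembly and rRNA modification factors had a site in 25 of 30 genes, with 126 sites and a median of 4 per gene with a site. DHX30, an RNA helicase, had 11, and the rRNA methyltransferase MRM3, the GTPase MTG2 and the pseudouridine synthase RPUSD4 had 8 each. The GTPase MTG2 had none of its 8 in the last 1 kb, whereas MRM3 had 7 of 8 there.

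Translation factors had a site in 13 of 18 genes, with a median of 4 sites. METAP1D, a mitochondrial methionine aminopeptidase, had 8, LRPPRC, which binds mitochondrial mRNAs, 6, MTRFR, a ribosome rescue factor, 5 and the elongation factor GFM1 4. The elongation factor TUFM had 2 sites, both in the last 1 kb, one of them with a score of 221, and GFM2, MRRF, MTFMT, MTIF2 and PDF had none. In the last 1 kb lay 24.6% of sites in assembly factors and 28.9% in translation factors, beside the 52.6% in the members. An even spread over each span would place 8.74%, 5.64% and 14.5% there, in that order. For the 5 ribosome proteins without the MRP name the share was 41.2% of 17 sites in genes of 2 kb or more, where an even spread would place 15.3%. The median sites of assembly and translation factors ranked at percentile 55.2 and 53.2, beside 77.3 for the members and 79.6 for those 5 proteins.

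Cytosolic ribosomal protein genes had a site about as often as the mitochondrial ones, in 66 of 88 genes (75%), but with a median of 1 site per gene with a site, where the members had 3. A single site was found in 36 of those 66 genes, and in 12 of the 60 members. Cytosolic genes held 130 sites, with a median percentile by score of 67.1. Those in the shorter part of the list only made up 31.5% of them, beside 5.26% for the members. The cytosolic list was also made by name. It holds RPL7L1 with 6 sites, and RPL3L, RPL10L, RPL39L, RPS4Y1 and RPS4Y2 are among its genes without a site. Pseudogenes of cytosolic genes were not counted, and reads shared with such copies were not examined. Nuclear-encoded oxidative phosphorylation genes, whose products join those that the mitochondrial ribosome makes, had a site in 56 of 86 genes (65.1%), with 110 sites, a median of 2 and a median percentile of 40.3. That list too was made by name. COX4I2, COX6A2, COX6B2, COX7A1, COX7B2, COX8C, ATP5MGL and UQCRHL are among its genes without a site. No test of these differences was made.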

How the data were processed

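The authors deposited 1 list for the 8 libraries, without a header, giving for each row a chromosome, a 1-nt position, a strand and a score on a scale that no source states. Per the submitters' processing notes FastQC 0.11.8, STAR 2.7.3a, UMI-tools 1.0.0, bedtools 2.27.1 and the build GRCh38.p12 were used, with no role stated. No source used here names the site caller or says how replicates entered it. There were 0 columns of single samples, so the comparison of STM2457 with DMSO was not made and no depth can be stated.

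Rows that share position and strand were counted once, at their higher score. A position was counted to every protein-coding gene whose RefSeq span (GRCh38.p14, main chromosomes) holds it on its strand, with 95 readthrough genes left out. Strand came from the table of gene starts for 69 members and from the positions for 7 (MRPL2, MRPL10, MRPL15, MRPL21, MRPL23, MRPL35 and MRPS28), which therefore have a site by construction. MRPL13 had neither. Both sources gave the same strand in 2408 of 2409 genes with 5 or more positions. These 7 members have 1 to 3 and lie outside that check. On simulated positions in 991 genes, 100% of counts were recovered. Those genes spanned 5 kb or more, had a strand in the table of gene starts and did not overlap each other. The check therefore covers the counting step alone. Shorter genes, overlapping genes and strands taken from the positions lie outside it.

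The members, lists and alternatives were chosen with earlier results of these data known, and the alternative by strand source after seeing the data. Genes named with positions are the 10 members with most sites, 6 with the top scores and 5 with most sites per kb, ties in alphabetical order, all members without a site, and up to 4 per list. Other genes named as examples were chosen after their values were seen. C12orf65, in the list of translation factors, is an older symbol of MTRFR and was not counted. Python 3.11.15, pandas 2.3.3 and scipy 1.17.1 were used.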

Additional observations from a re-analysis of the deposited data

How the results depend on the processing

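Of 46 values under alternatives, 37 stayed within 1.5 times of a count or within the binomial 95% interval of a share or median, 9 moved and 0 reversed. Most alternatives reuse the same positions, and that interval treats sites or genes as independent, though many sites are close neighbours. It is thus a yardstick for sorting the values and measures no error. The shorter part of the list alone gave 38 members with a site, 48 sites, a median of 1 site and 0.129 sites per kb, and 65.9% of sites in the last 1 kb, beside 4510 genes, 8952 sites, 1 site, 0.0543 per kb and 15.2% over all genes. Fewer rows lower these counts by construction. The longer part alone kept 60 members and 180 sites, beside 7558 genes and 34317 sites over all genes. Keeping sites at or above the median score moved the median percentile to 85.4 (75 over all genes), as that filter must. With it 57 members still held a site, beside 6089 of all genes. Members spanning 5 kb or more held 120 sites, and 46.7% of theirs lay in the last 1 kb, beside 14.7% over all genes of that span. A window of 500 nt in place of 1 kb held 40% of member sites (8.06% over all genes) and a window of 2000 nt 65.1% (29.8%). Without the 6 MRPS6 sites shared with SLC5A3 there were 184 sites, 54.4% of them in the last 1 kb among genes of 2 kb or more. The same filter, positions in 1 protein-coding gene only, gave 16.3% over all genes. Genes whose strand is in the table of gene starts, an alternative chosen after seeing the data, gave 174 sites in 53 members. Of these sites, 53.5% lay in the last 1 kb among genes of 2 kb or more, and the median percentile was 78.6. Over all genes this alternative gave 6548 genes with a site, 16.4% of sites in the last 1 kb and a median percentile of 50.2. No paired analysis was possible because the list has no values per library. Read depth, expression and exon boundaries, none of which was used here, limit every value.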

Other observations

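On the strand opposite to a member, 3 positions of the list lay within members' spans, 2 in that of MRPS25, where NR2C2 overlaps, and 1 in that of MRPL43, where SEMA4G overlaps. The other 58 members with a site had none.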
